A study of Mus musculus with 96 samples.

Results

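Tcstv1, Tcstv3, Zfp352, Tmem92 and Sp110 are genes of the 2-cell-like program outside the Zscan4 cluster, and their rows were taken by symbol from 7 gene count tables of mouse embryonic stem cells (ESCs). Of the 5 symbols, 3 were found among the 37620 genes of each table, namely Zfp352, Tmem92 and Sp110, and the symbols Tcstv1 and Tcstv3 matched no gene identifier and are not analysed here. Tmem92 was matched through the gene that the annotation names Tmem92-ps. The 7 tables hold 28 columns of RNA-seq libraries from 26 samples, with 2 libraries in each group and 14512857 to 81049618 counts on genes per library. The study asks how RYBP, a subunit of variant Polycomb repressive complex 1, takes part in gene control in ESCs.

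In R1 ESCs, cells carrying an shRNA against Rybp (shRybp) or against Wdr5 (shWdr5) were each set against the empty vector (shEV). The same shEV libraries serve as control in both tables. In the R7.15 line, Rybp-floxed ESCs without 4-hydroxytamoxifen (Rybp+/+) were compared with cells given 5 µM 4-hydroxytamoxifen (4-OHT) for 4 days (Rybp-/-), so deletion and 4-OHT cannot be told apart in this comparison. A further pair of groups shares the alleles RYBPfl/fl and Rosa26::CreERT2 and 4-OHT, and carries either WT RYBP (WT.RYBP) or RYBP with a 21aa deletion (RYBP phase disruption). R1 ESCs with the TF-AA mutation, a label the sources used here do not explain, were compared with WT ESCs. J1 ESCs with a Tet-on RYBP transgene received vehicle or doxycycline (Tet.RYBP.vehicle, Tet.RYBP.DOX), and the rTRS line, labelled as a doxycycline-induced integration of Rybp and Stat3, was untreated or treated (rTRS NTC, rTRS DOX). All were labelled as embryonic stem cells, no source says whether a group came from 1 clone, and nothing says that the 2 libraries of a group came from separate cultures, so a p-value here measures the spread between these libraries, which may be technical.

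A small fraction of cultured ESCs passes at any time through a state that resembles the blastomeres of the 2-cell embryo. Such cells transcribe genes that are otherwise silent after the early cleavages, among them Zscan4, Zfp352, the Tcstv genes and copies of the MERVL retroelement, and lose part of the pluripotency proteins. DUX, DPPA2 and DPPA4 are known as activators of this program, while variant PRC1, the histone methyltransferases SETDB1 and EHMT2 and the chromatin assembly factor CAF-1 are known to hold it down.

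Zfp352 encodes a C2H2 zinc finger protein and lies on the plus strand of mm9 at chr4:89885511-89892393, with 3 annotated transcripts. Sp110, on the minus strand at chr1:87473474-87495392, encodes a nuclear body protein related to Sp100. Tmem92, on the minus strand at chr11:94638531-94644017, encodes a predicted membrane protein and stands in a row of genes annotated as pseudogenes. The genes differ in how far their reads can be placed. Of all 50-base stretches of annotated exon, 9.06% in Zfp352, 22.5% in Tmem92 and 74.3% in Sp110 also occur elsewhere in mm9, so the counts of Sp110, and to a lesser degree those of Tmem92, are uncertain with respect to these other places.

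The promoter windows of Zfp352 and Sp110 are shown because they share a repeated stretch of letters. They are RefSeq windows of GRCm38.p6, from 250 bases before to 50 bases after the start, at chr4:90218570-90218869 on the plus strand for Zfp352 and at chr1:85603842-85604141 on the minus strand for an upstream start of Sp110, both written 5′ to 3′ on the gene's strand. Capitals mark ACACCTTTAATC on either strand and TATAAGG.
Zfp352: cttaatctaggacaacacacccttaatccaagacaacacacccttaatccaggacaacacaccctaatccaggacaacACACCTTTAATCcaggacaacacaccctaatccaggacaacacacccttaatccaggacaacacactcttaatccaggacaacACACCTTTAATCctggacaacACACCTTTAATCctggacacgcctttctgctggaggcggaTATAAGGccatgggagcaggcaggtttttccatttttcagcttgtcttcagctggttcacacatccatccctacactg
Sp110 upstream start: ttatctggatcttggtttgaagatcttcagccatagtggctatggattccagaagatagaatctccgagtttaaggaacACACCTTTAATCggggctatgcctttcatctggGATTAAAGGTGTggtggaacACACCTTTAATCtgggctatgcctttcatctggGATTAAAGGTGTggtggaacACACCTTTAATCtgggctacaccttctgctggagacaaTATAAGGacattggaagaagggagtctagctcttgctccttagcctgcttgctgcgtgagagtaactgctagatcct

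Both windows match mm9 exactly and once on their chromosome, and the upstream Sp110 start lies 5074 bases before the annotated start of the gene in mm9. ACACCTTTAATC occurs 3 times on the gene's strand in the Zfp352 window. In the Sp110 upstream window it occurs 3 times on the gene's strand and 2 times on the other, in alternation. The longest runs that both windows share are AACACACCTTTAATC, of 15 bases, and TTCTGCTGGAG, of 11 bases, which begins 44 bases before the Zfp352 start and 42 bases before the Sp110 start and is followed in both by TATAAGG. Searched on both strands, ACACCTTTAATC was present in 54 of 32851 RefSeq windows of this length (0.164%), and TATAAGG in 2.17%. The window of the main Sp110 start, at chr1:85598761-85599060, held neither. ACACCTTTAATC occurs 8 times over both strands in these windows together, as often as the overlapping CACACCTTTAAT and more often than any other 12-base stretch, and both stretches were chosen after the sequences were seen. A DUX motif, the STAT motif TTCNNNGAA and the E-box CACGTG, searched on both strands and present in 11, 2726 and 2349 of all windows, had no match in the windows of Zfp352 and Sp110. A match or its absence describes the letters in the window alone.

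In shRybp ESCs, Zfp352, Tmem92 and Sp110 were all higher than in shEV ESCs. Rybp itself, at 3389 and 3178 counts with shEV, was at 1974 and 1640 with shRybp. Zfp352 had 20 and 15 counts with shEV and 88 and 73 with shRybp, or 0.506 and 0.408 against 1.59 and 1.63 CPM (read counts scaled to library size). The fitted log2 difference was 1.81, with a standard error of 0.40 and an adjusted p of 8.7e-04 (quasi-likelihood F-test in edgeR, Benjamini-Hochberg over all genes of the table). Tmem92 had 100 and 67 counts with shEV and 583 and 480 with shRybp, a log2 fold change of 2.28 ± 0.17 (SE, adjusted p = 2.6e-09 by edgeR). Sp110 had 67 and 88 counts with shEV and 300 and 271 with shRybp, a log2 fold change of 1.49 ± 0.21 (SE, adjusted p = 7.9e-06 by edgeR). For each of these genes, both shRybp libraries lay above both shEV libraries in CPM. In this table, 52.7% of all genes tested changed and 26.8% rose, the background against which 3 of 3 genes rising is to be read. The sources do not say why the shEV libraries hold only 0.509 and 0.506 as many counts in the shWdr5 table as in this table.

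**Figure D1:**
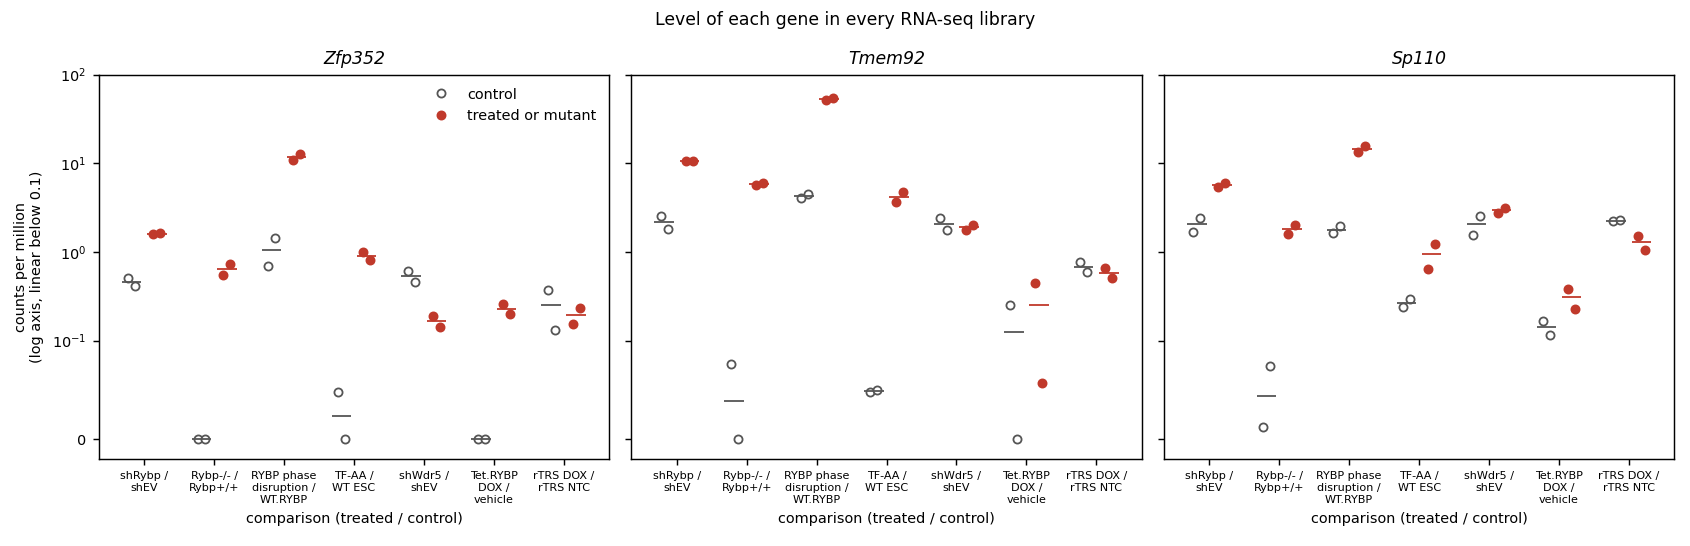
CPM of Zfp352, Tmem92 and Sp110 in each library (points) with the group mean (line), control in open grey and treated or mutant in filled red, for the 7 comparisons on a log axis that is linear below 0.1. Treated libraries lie above their controls in the 4 comparisons at the left for all 3 genes, and the RYBP phase disruption libraries reach the highest levels (for Tmem92, 51.1 and 54.4). Tables were normalized separately.

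In Rybp-/- ESCs, the same genes stood at or near 0 before deletion and were detected in both libraries after it. Rybp had 8680 and 8867 counts in Rybp+/+ and 1889 and 1923 in Rybp-/- ESCs. Zfp352 had 0 counts in both Rybp+/+ libraries and 42 and 56 counts in the Rybp-/- libraries. Against a floor of 3 counts per library it was at least 17.0-fold higher in Rybp-/- ESCs (adjusted p = 3.5e-07 by edgeR with Benjamini-Hochberg adjustment). No fold change in the usual sense can be given for it, since the fitted value depends on how a count of 0 is treated. Tmem92 had 6 and 0 counts in Rybp+/+ and 431 and 462 in Rybp-/- ESCs, a log2 fold change of 7.21 ± 0.35 (SE, adjusted p = 1e-17 by edgeR). Sp110 rose from 1 and 6 counts to 120 and 154 (log2 fold change 5.30 ± 0.50 SE, adjusted p = 1.1e-10 by edgeR). The groups did not overlap for any of these genes. Here 45.5% of all genes tested changed and 22.8% rose. The size of the rise rested on a few control reads. Without Rybp+/+ replicate 1 the fitted log2 fold change of Tmem92 was 11.8, against a control with 0 counts, and that of Sp110 was 4.55. Without Rybp+/+ replicate 2 these were 6.22 and 6.96.

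RYBP phase disruption cells, in which both groups had received 4-OHT, gave the highest levels of all 3 genes. Zfp352 had 11 and 23 counts with WT.RYBP and 162 and 188 with RYBP phase disruption (log2 fold change 3.46 ± 0.25 SE, adjusted p = 5.5e-13 by edgeR with Benjamini-Hochberg adjustment). Without WT.RYBP replicate 2, its log2 fold change was 4.07. Tmem92 had 65 and 72 counts with WT.RYBP and 752 and 809 with RYBP phase disruption, a log2 fold change of 3.62 ± 0.12 (SE, adjusted p = 1.6e-22 by edgeR). Sp110 had 26 and 31 counts against 197 and 231, a log2 fold change of 3.01 ± 0.20 (SE, adjusted p = 7.1e-14 by edgeR). Both mutant libraries exceeded both controls for every one of them. Of all genes tested in this table, 33% changed and 16.1% rose. Corrected for gene length and library size, Tmem92 was the most abundant in the RYBP phase disruption cells at 24.1 RPKM, then Zfp352 at 5.08 and Sp110 at 2.16, and the WT.RYBP levels were 1.96, 0.457 and 0.267 RPKM. The full annotated length was used. Since 74.3% of the exonic 50-base stretches of Sp110 and 9.06% of those of Zfp352 occur elsewhere in mm9, the order of these 2 genes is uncertain.

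TF-AA mutation cells also had more reads on these genes than WT ESCs, which had almost none on Zfp352 and Tmem92. Zfp352 had 1 and 0 counts in WT ESCs and 20 and 15 in TF-AA mutation cells. The ratio was 37.1, with a 95% counting interval of 6.23 to 1506 (adjusted p = 2.3e-04 by edgeR with Benjamini-Hochberg adjustment). Tmem92 had 1 count in each WT ESC library and 74 and 88 in the mutant libraries, a ratio of 85.8 with an interval of 23.4 to 715 (adjusted p = 4.8e-09 by edgeR). Such intervals cover counting error only. Sp110 had 5 and 6 counts against 13 and 23, a log2 fold change of 1.78 ± 0.59 (SE, adjusted p = 0.024 by edgeR), with no overlap between the groups. Over all genes tested with TF-AA, 30.5% changed and 14.4% rose. The call of Sp110 was not stable. Its adjusted p was 0.126 by DESeq2, 0.116 without WT ESC replicate 1, 0.0684 without WT ESC replicate 2 and 0.385 without TF-AA mutation replicate 2, and ranged from 0.0236 to 0.385 over the 8 alternatives. For Zfp352, the fitted log2 fold change was 4.89 and became 7.16 without WT ESC replicate 1 and 4.06 without WT ESC replicate 2.

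**Figure D2:**
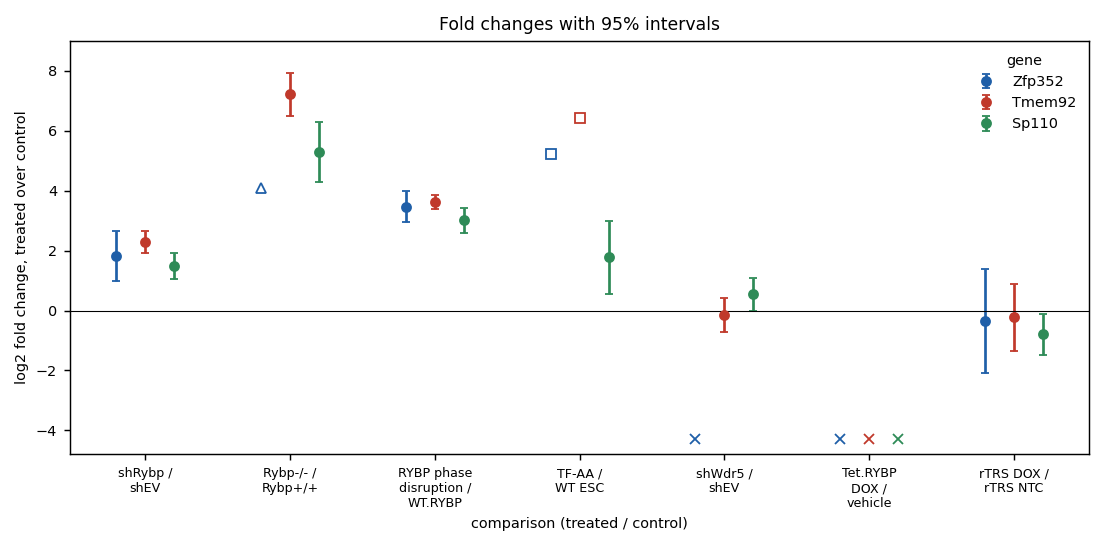
Log2 fold change (treated over control) of each gene in the 7 comparisons. Filled points with bars are edgeR fits with 95% intervals, open triangles are lower bounds against the floor where the control was 0, open squares are ratios where the control held 1 to 3 counts, and crosses at the bottom mark genes not tested. All fitted values in the 4 comparisons at the left lie above 0, from 1.49 (Sp110, shRybp) to 7.21 (Tmem92, Rybp-/-).

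Knockdown of Wdr5, a subunit of the Trithorax methyltransferase complexes, gave no called change in Zfp352, Tmem92 or Sp110. Wdr5 had 7481 and 6774 counts with shEV and 1285 and 1212 with shWdr5, while 63% of all genes tested changed, 31.5% upward and 31.5% downward. Zfp352 had 13 and 9 counts with shEV and 4 and 3 with shWdr5, lower in both shWdr5 libraries, and fell below the filter on low counts. Without that filter, its log2 fold change was -1.65 (adjusted p = 0.0605 by edgeR). Tmem92 had 51 and 35 counts against 38 and 42, overlapping values with a log2 fold change of -0.14 (95% interval -0.71 to 0.43, adjusted p = 0.68 by edgeR). Sp110 had 33 and 50 counts against 59 and 65 with no overlap, a log2 fold change of 0.54 (95% interval -0.01 to 1.08, adjusted p = 0.079 by edgeR). Of Tmem92 and Sp110, 0 were called by edgeR or DESeq2, and 0 had an unadjusted edgeR p under 0.05. Sp110 alone was called without shEV replicate 2 (log2 fold change 0.92, adjusted p = 0.00946), and over its 8 alternatives the adjusted p ranged from 0.00946 to 0.537. Tmem92 stood at a log2 fold change of 0.10 without shEV replicate 1. All 5 Zscan4 genes found in the tables fell in shWdr5 ESCs, Zscan4b from 87 and 92 counts to 24 and 24.

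In J1 ESCs with induced RYBP, Rybp had 4876 and 5015 counts with vehicle and 16300 and 18639 with doxycycline, and the genes of interest stayed near the limit of detection. Zfp352 had 0 counts in both vehicle libraries and 8 and 7 with doxycycline, at least 2.69-fold higher against the floor of 3 counts per library. Tmem92 had 9 and 0 counts against 14 and 2, and Sp110 had 6 and 4 against 12 and 8. In CPM the groups overlapped for Tmem92 and did not overlap for Zfp352 and Sp110. None of these genes passed the filter on low counts, so 0 of 0 tested were called by edgeR or DESeq2. Without the filter the adjusted p values were 0.238, 0.807 and 0.804 by edgeR. Of all genes tested in this table, 6.02% changed and 3.63% rose.

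The libraries labelled rTRS DOX did not have more Rybp than rTRS NTC, with 5285 and 5081 counts against 5795 and 5936 (adjusted p = 0.076 by edgeR), which goes against the label. Zfp352 had 19 and 7 counts in rTRS NTC and 8 and 12 in the libraries labelled rTRS DOX, a log2 fold change of -0.36 (95% interval -2.09 to 1.37, adjusted p = 0.75 by edgeR). Without rTRS NTC replicate 1 it was 0.57. Tmem92 had 39 and 32 counts against 34 and 26 (log2 fold change -0.22, 95% interval -1.34 to 0.90, adjusted p = 0.77 by edgeR). These 2 genes overlapped between groups. Sp110 had 113 and 123 counts against 79 and 54, lower in both libraries labelled rTRS DOX, with a log2 fold change of -0.80 (95% interval -1.47 to -0.13, adjusted p = 0.053 by edgeR). Of these 3 genes, 0 were called by edgeR or DESeq2 and 1, Sp110, had an unadjusted edgeR p under 0.05, beside 43.4% of all genes called and 20.4% called lower. Sp110 was called without the filter on low counts (adjusted p = 0.0369) and without rTRS DOX replicate 1 (log2 fold change -1.09, adjusted p = 0.0224), and over its 8 alternatives the adjusted p ranged from 0.0224 to 0.234.

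Loss of RYBP by knockdown and by deletion were compared directly in a fit over the 8 libraries of both tables, as the difference of the fold changes. The effect of shRybp was smaller than that of Rybp deletion by a log2 difference of -4.94 for Tmem92 (95% interval -5.97 to -3.91, adjusted p = 3e-08 by edgeR with Benjamini-Hochberg adjustment) and of -3.82 for Sp110 (95% interval -4.96 to -2.68, adjusted p = 5.4e-06 by edgeR). For Zfp352 the fitted difference was -6.56 (adjusted p = 0.00036 by edgeR), which is no bound because Rybp+/+ ESCs held 0 counts. All 3 genes were called, beside 40.5% of all genes tested. The treated levels were not lower with shRybp. Tmem92 had 10.6 CPM with shRybp and 5.83 in Rybp-/- ESCs, and the controls differed more, at 2.17 CPM with shEV and 0.0382 in Rybp+/+ ESCs. Line, vector, depth and 4-OHT differ between these tables along with the way RYBP was lost, and cannot be told apart. Without Rybp+/+ replicate 1 the differences for Tmem92 and Sp110 were -9.23 and -3.08, and without Rybp+/+ replicate 2 they were -3.97 and -5.46.

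Across the 14 groups of the 7 tables, all 3 genes stood highest in RYBP phase disruption and second highest in shRybp ESCs. Zfp352 had 11.8 ± 1.2 CPM (SD, n = 2) with RYBP phase disruption and 1.61 ± 0.023 with shRybp, and in neither case did the libraries overlap with the next group. For Tmem92 the levels were 52.7 ± 2.4 and 10.6 ± 0.096 CPM, followed by Rybp-/- at 5.83 ± 0.24, each above the next group without overlap. Sp110 had 14.5 ± 1.5 and 5.74 ± 0.43 CPM, and the shWdr5 libraries came next at 2.94 ± 0.26. Below these, most neighbours overlapped. For Zfp352 the ranges of WT.RYBP and TF-AA mutation overlapped, as did those of Rybp-/- and the shEV group of the shWdr5 comparison. Those of the rTRS, Tet.RYBP.DOX and shWdr5 groups overlapped in turn. For Tmem92, WT.RYBP and TF-AA mutation overlapped at 4.29 and 4.19 CPM, and so did shEV and shWdr5. For Sp110, the ranges of rTRS NTC, shEV, Rybp-/- and WT.RYBP overlapped in turn, from 2.25 to 1.78 CPM. The lowest groups were Rybp+/+, WT ESC and Tet.RYBP.vehicle for every gene. Levels in different tables were normalized separately, and the order is a description. These are bulk samples, in which more cells of the 2-cell-like state and more RNA per such cell cannot be told apart.

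The genes whose levels ran most like theirs were sought over 24 libraries of 6 tables, leaving out the shWdr5 table, among 15408 genes, with log2 CPM centred on each table's mean. For Zfp352 these were Zscan4b (Pearson r 0.97), Zscan4c (0.96) and Gm16026 (0.95). Tmem92 was most like Zscan4-ps2 (0.97), Gm13119 (0.96) and Gm13109 (0.96). Sp110 was most like Sycp1 (0.95), which encodes a protein of the synaptonemal complex of meiosis, Calcoco2 (0.94), an autophagy receptor gene, and Gm13119 (0.94). Between the genes of interest, r was 0.92 for Zfp352 and Tmem92, 0.91 for Zfp352 and Sp110 and 0.89 for Tmem92 and Sp110. The libraries of a group share their condition and these values have no p.

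Other genes of the program moved in the same comparisons. Of 49 further 2-cell-like genes listed, 36 were matched, and 29 passed the filter on low counts in the shRybp table, of which 28 rose and 0 fell, with a median log2 fold change of 2.34 (all genes 0.02). Pramef6, a member of the PRAME family, had 4 and 8 counts with shEV and 129 and 94 with shRybp. In Rybp-/- ESCs 28 of 29 tested rose and 0 fell, with a median log2 fold change of 6.90, or 5.56 with the 8 genes whose controls were at 0 set to their lower bound. Gm2016 had 0 counts in both Rybp+/+ libraries and 491 and 474 in Rybp-/- ESCs, at least 167-fold higher against the floor. With RYBP phase disruption 27 of 29 rose and 1, the epidermal transcription factor gene Zfp750, fell, at a median of 3.27. In TF-AA mutation cells 22 of 23 rose and 0 fell, at a median of 6.32, or 4.55 with the 6 genes at their bound. In shWdr5 ESCs 3 rose and 6 fell of 21 tested (median -0.37). Zfp750, from 208 and 155 to 1001 and 849 counts, and the stress-induced Ddit4l, from 253 and 242 to 1223 and 1203 counts, are 2 of these 3. Doxycycline in Tet-on RYBP cells raised 5 of 10 tested and lowered 0 (median 3.18), such as Gm8994 from 1 and 1 to 45 and 40 counts, and 8 of 21 fell and 0 rose in the libraries labelled rTRS DOX (median -0.83). In the filter, a gene at or near 0 in the control can pass only through the other group. Such a gene could hardly be called lower. In Tet-on RYBP cells 10 of the 36 matched genes passed, among them Gm8994 with 1 count in each vehicle library. The 5 of 10 and the median of 3.18 are subject to this limit. Genes with 1 or more control counts kept their fitted values in the medians of 5.56 and 4.55. The median of all genes lay within 0.02 of 0 in every table, and the share of all genes that rose was 26.8% with shRybp, 22.8% in Rybp-/- ESCs, 16.1% with RYBP phase disruption, 14.4% in TF-AA mutation cells, 31.5% with shWdr5, 3.63% in Tet-on RYBP cells and 23% in rTRS. With shWdr5 and in rTRS, 31.5% and 20.4% of all genes fell.

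**Figure D3:**
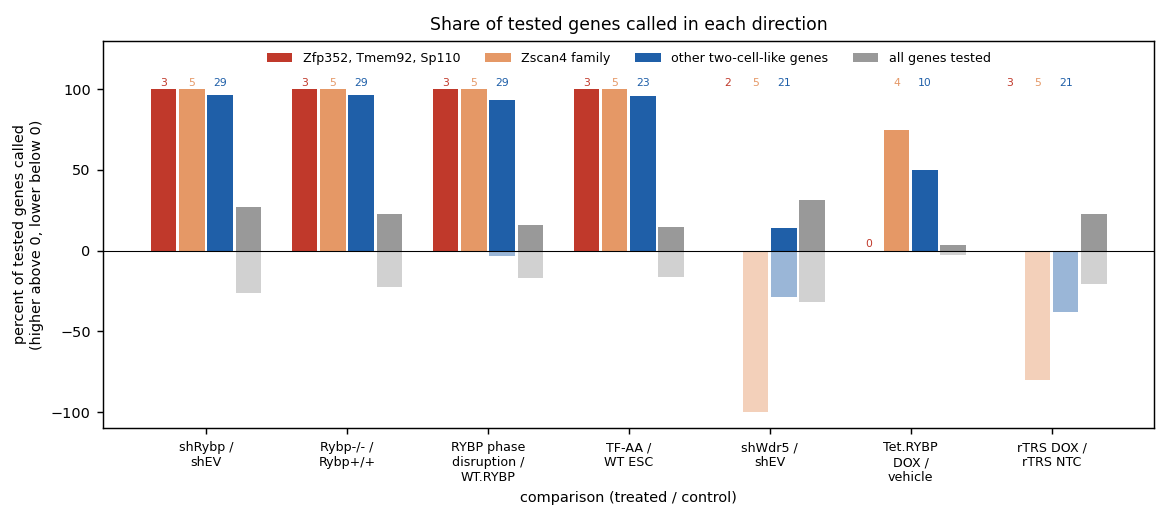
Percent of tested genes called higher (above 0) and lower (below 0, pale) in each comparison, for Zfp352, Tmem92 and Sp110, for the Zscan4 family, for other 2-cell-like genes and for all genes tested. Small figures give the number of genes tested. Bars reach 100% upward for the first group in the 4 comparisons at the left and are absent in the other 3, where the Zscan4 bars point down, up and down.

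Known regulators of the program were read in the same tables. Of the 4 activators matched, 1 rose and 1 fell with shRybp, namely the elongation factor subunit gene Nelfa (log2 fold change 0.64) and Dppa4 (-0.53). In Rybp-/- ESCs 2 rose, Dppa2 by 0.50 and Trp53 by 0.14, and with RYBP phase disruption Dppa2 (0.81) and Nelfa (0.69) rose. In TF-AA mutation cells Dppa2 (-0.27) and Dppa4 (-0.24) fell, and in the libraries labelled rTRS DOX 3 of 4 fell, Dppa2 from 4242 and 4262 to 1531 and 1428 counts. With shWdr5, Trp53 rose by 0.39 and Dppa2 fell (-0.34). Of the 15 repressors, 12 fell and 1 rose with shRybp (median -0.44), 9 fell and 3 rose in Rybp-/- ESCs (median -0.16), 8 fell and 2 rose with RYBP phase disruption (median -0.12) and 4 fell and 2 rose in TF-AA mutation cells (median -0.12). Over all genes tested, 26%, 22.7%, 17% and 16.1% fell in these comparisons, and 26.8%, 22.8%, 16.1% and 14.4% rose. Ehmt2, which encodes the H3K9 methyltransferase G9a, fell in all 4, by 0.87, 0.48, 0.37 and 0.44 on the log2 scale, and so did Lin28a, an RNA-binding protein gene, by 1.48, 0.37, 0.95 and 0.31. With shWdr5, 8 repressors fell and 4 rose (median -0.12), where 31.5% of all genes went each way. In the libraries labelled rTRS DOX 7 fell and 4 rose (median -0.16), beside 20.4% and 23% of all genes. Lin28a fell by 1.08 with shWdr5, and the pluripotency factor gene Zfp42 fell by 1.68 in the libraries labelled rTRS DOX. In Tet-on RYBP cells 1 repressor rose and 1 fell, beside 3.63% and 2.39% of all genes. Of 12 subunits of the PRC1.6 complex, Rybp and Wdr5 among them, 10 fell and 2 rose with shRybp, 6 fell and 2 rose in Rybp-/- ESCs and 9 fell and 3 rose with RYBP phase disruption. In TF-AA mutation cells 1 fell and 2 rose, with a median of 0.09. The counts were 5 falling and 3 rising with shWdr5, 0 falling and 1 rising in Tet-on RYBP cells and 5 falling and 2 rising in the libraries labelled rTRS DOX. Rybp is counted among those that fell in shRybp and Rybp-/- ESCs, and Wdr5 among those that fell with shWdr5, each being the targeted gene. The 1 that rose in Tet-on RYBP cells is Rybp, the induced gene, from 4876 and 5015 to 16300 and 18639 counts. The shares of all genes given above for each comparison stand beside these counts too. E2f6, which encodes a DNA-binding subunit, rose with shRybp (0.73), in Rybp-/- ESCs (0.64), with RYBP phase disruption (0.41) and in TF-AA mutation cells (1.12). Mga, which encodes another, fell by 0.43 in Rybp-/- ESCs and by 0.39 with RYBP phase disruption.

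Sp110 belongs to a family that also responds to interferon, so 20 interferon response and Sp100 family genes were set beside it. In the comparisons in which Sp110 rose, the counts were 3 rising and 3 falling of 10 tested with shRybp, 2 rising and 4 falling of 15 in Rybp-/- ESCs, 1 rising and 2 falling of 15 with RYBP phase disruption, and 2 rising and 2 falling of 8 in TF-AA mutation cells. Over all genes tested, 26.8%, 22.8%, 16.1% and 14.4% rose in these comparisons, and nothing is read from the counts. The family member Sp140 had 0 and 7 counts in Rybp+/+ and 17 and 25 in Rybp-/- ESCs (log2 fold change 2.60, adjusted p = 0.015 by edgeR). In the libraries labelled rTRS DOX, where Sp110 had lower counts, 13 of 17 rose and 0 fell, such as Oasl2 from 18 and 4 to 378 and 408 counts, beside 23% and 20.4% of all genes.

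Markers of other cell types were read in the same libraries. Of 10 pluripotency genes, 5 rose and 4 fell with shRybp, where Pou5f1 fell by 0.66 on the log2 scale and the sum went from 8179–8469 to 7170–7211 CPM. In Rybp-/- ESCs 5 rose and 4 fell, with RYBP phase disruption 1 rose and 3 fell, and in TF-AA mutation cells 2 rose and 2 fell. With shWdr5, 2 rose and 7 fell, and in the libraries labelled rTRS DOX 0 rose and 8 fell, from a sum of 6214–6496 to 4099–4357 CPM. In Tet-on RYBP cells 1 rose and 0 fell. Of 8 fibroblast markers, 4 of 4 tested rose with shRybp, from a sum of 18.7–18.9 to 31.5–32.3 CPM with Lum and Dcn at 0, and 7 of 8 rose in Rybp-/- ESCs, from 56.9–57.9 to 116–122 CPM. In TF-AA mutation cells 3 of 3 tested rose, from 11.0–11.7 to 24.2–24.7 CPM with Col3a1, Lum and Dcn at 0, whereas 3 of 8 fell with RYBP phase disruption, from 427–432 to 345–369 CPM. With shWdr5 and in the libraries labelled rTRS DOX, Col1a1 rose and Thy1 fell among 3 tested. Of 8 trophectoderm markers, 6 of 8 tested rose and 1 fell with shRybp (130–143 to 332–348 CPM), 7 of 8 rose in Rybp-/- ESCs (156–159 to 187–196 CPM), 5 of 7 rose with RYBP phase disruption (391–399 to 509–534 CPM) and 3 of 4 rose in TF-AA mutation cells (81.2–81.9 to 99.4–105 CPM). In shWdr5 ESCs 4 of 7 rose and 1 fell (123–135 to 263–275 CPM), in the libraries labelled rTRS DOX 6 of 7 rose (251–262 to 991–1068 CPM) and in Tet-on RYBP cells 1 of 5 rose. Of 5 primitive endoderm markers, 4 rose and 1 fell with shRybp, 3 rose and 1 fell with shWdr5, and 1 of those tested rose in each of Rybp-/-, RYBP phase disruption and TF-AA mutation cells. In the libraries labelled rTRS DOX 0 of 4 rose and 1 fell, Sox7 from 45 and 51 to 3 and 0 counts. In Tet-on RYBP cells edgeR called 0 of 2 fibroblast and 0 of 3 primitive endoderm markers tested, with 1 and 2 at an unadjusted p under 0.05. These counts stand beside the share of all genes that rose, which was 26.8% with shRybp, 22.8% in Rybp-/- ESCs, 16.1% with RYBP phase disruption, 14.4% in TF-AA mutation cells, 31.5% with shWdr5, 3.63% in Tet-on RYBP cells and 23% in rTRS. The share that fell was 26%, 22.7%, 17%, 16.1%, 31.5%, 2.39% and 20.4% in the same order. The part of these cell types in the results was not tested.

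Peaks were read within 2.5 kb of the annotated start of each gene in 14 lists, which cover H3K27ac, H3K4me3 and WDR5 in Rybp+/+ and Rybp-/- ESCs, STAT3 in the same cells, RING1B in ESCs with shEV or with an shRNA against Stat3 (shStat3), and RING1B and STAT3 in Tet.Rybp.Stat3 cells without and with doxycycline. The shEV and shStat3 RING1B lists and the Rybp+/+ and Rybp-/- STAT3 lists come from 1 library each, and in the others the replicates were merged before peak calling, so no test was made. Of the 42 pairs of a gene and a list, 1 held a peak, and the same count was found within 1 kb. H3K4me3, the mark of active promoters, covered 65.7% and 65.8% of coding gene starts in Rybp+/+ and Rybp-/- ESCs and no start of Zfp352, Tmem92 or Sp110. RING1B, the catalytic subunit of PRC1, was listed at 39.4% (shStat3) to 52.4% (Tet.Rybp.Stat3 without doxycycline) of coding gene starts, and at none of these 3 genes. The nearest RING1B peak lay 90.2 to 90.4 kb from Tmem92, 104.5 to 194.5 kb from Sp110 and 528.8 to 529.3 kb from Zfp352. Of the 36 other 2-cell-like genes, 0 to 4 had a peak, depending on the list, and of the 5 Zscan4 genes 0 had one in any list. Whether ChIP reads can be placed uniquely at the starts of all these genes was not examined. A missing peak therefore does not show that the mark or protein is absent there.

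The peak is one of H3K27ac, the mark of active promoters and enhancers, in Rybp-/- ESCs at chr11:94644359-94644686 of mm9, 342 to 669 bases before the start of Tmem92. It has a length of 328 bp, a fold enrichment of 4.26 and a -log10 q of 6.89. In Rybp+/+ ESCs, the nearest H3K27ac peak was 83.9 kb away. The Rybp-/- and Rybp+/+ lists hold H3K27ac at 52.4% and 49.5% of coding gene starts. The 300 bases around the summit, at chr11:94644351-94644650 of mm9 on the minus strand, are shown because this is the only peak at a promoter of these genes, and none of the motifs searched above matched in them, so no letter is in capitals.
Tmem92 H3K27ac peak: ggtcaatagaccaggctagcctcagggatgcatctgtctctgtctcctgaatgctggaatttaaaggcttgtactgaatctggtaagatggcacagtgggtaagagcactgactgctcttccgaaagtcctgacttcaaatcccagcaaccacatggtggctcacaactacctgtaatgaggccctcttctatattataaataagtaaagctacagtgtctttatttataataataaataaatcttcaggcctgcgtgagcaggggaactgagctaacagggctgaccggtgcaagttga

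Tmem92 is flanked on chromosome 11 by genes annotated as pseudogenes, 1 at lower and 5 at higher coordinates, and these were examined after their values were seen. Gm11545, at chr11:94616451-94622496, rose in all 4 comparisons in which Tmem92 rose, from 37 and 18 to 187 and 228 counts with shRybp and from 9 and 2 to 165 and 184 in Rybp-/- ESCs. Gm11543, at chr11:94689500-94690244, had 0 counts in both Rybp+/+ libraries and 136 and 203 in Rybp-/- ESCs, and 28 and 17 against 286 and 274 with RYBP phase disruption. AA623943 went from 14 and 20 to 163 and 161 counts there, a log2 fold change of 3.35 ± 0.25 (SE, adjusted p = 6.8e-13 by edgeR). A430060F13Rik, the farthest of these genes, had at most 3 counts in any library of these 4 comparisons and was not tested. The sequences of these genes were not compared with that of Tmem92, of whose exonic 50-base stretches 22.5% occur elsewhere in mm9. Reads not uniquely aligned were counted apart from the genes in these 4 comparisons. How far the genes of this row share reads was not tested, so the row and Tmem92 cannot be taken as independent measurements.

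**Figure D4:**
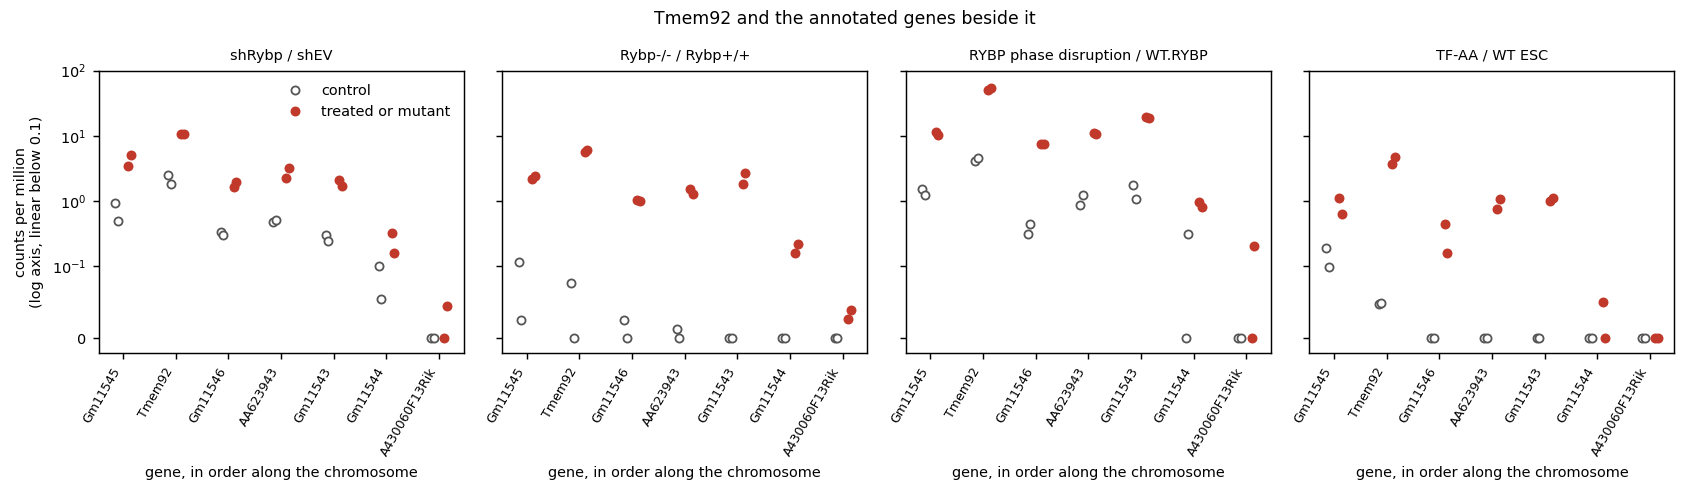
CPM of Tmem92 and 6 neighbouring genes annotated as pseudogenes, in their order along the chromosome, in each control (open grey) and treated or mutant library (filled red) of 4 comparisons, on a log axis that is linear below 0.1. In Rybp-/- ESCs, Tmem92 reaches 5.66 and 6.00 from 0.0763 and 0, and Gm11543 rises from 0 in both controls.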

How the data were processed

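RNA-seq reads were, per the labels, trimmed with Trim Galore, aligned to mm9 with STAR and counted per gene with HTSeq by the authors, who deposited whole-number read counts without normalization. Counts on genes ranged from 14512857 to 81049618 per library, and 4.3% to 19.4% of reads were not uniquely aligned in the tables that state it. Deposited peak lists give MACS2 fold enrichment (a ratio) and the −log10 of q, with replicates merged by the authors where there were 2 libraries. All columns were used. Each table was tested alone with edgeR 4.0.16 (R 4.3.3): low-count filter, TMM, quasi-likelihood test, Benjamini-Hochberg adjustment and a threshold of 0.05. Alternatives were DESeq2 1.42.0, RLE scaling, no filter, a replicate block, a log2 fold change above 1 and leaving out each library. On simulated data with 200 changed genes, 81% to 97% of log2 changes of 2 and 67% to 85% of log2 changes of 1 were recovered, depending on the table. The changed genes were drawn from all genes tested, so these shares need not hold for genes with few counts. CPM and RPKM were computed from counts. Promoter windows and gene positions came from RefSeq and mm9 annotation. Replicates differed by more than sampling noise. At most 3 called genes with the largest change were named per list and comparison. Genes and lists were chosen with earlier results of these data known.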

Additional observations from a re-analysis of the deposited data

Results flagged for a closer look

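The effect of losing RYBP differed between knockdown in R1 ESCs and deletion in R7.15 ESCs, by a test of the difference itself over 8 libraries. The difference of the log2 fold changes (shRybp effect minus Rybp-/- effect) was -6.56 for Zfp352, -4.94 for Tmem92 and -3.82 for Sp110 (adjusted p = 0.00036, 3e-08 and 5.4e-06 in edgeR, Benjamini-Hochberg adjusted over all genes), beside 40.5% of all genes called. The value for Zfp352 is a fitted one against 2 Rybp+/+ libraries with 0 counts, so its size depends on how a count of 0 is treated and is no bound. In every case both treated libraries were above both controls in each line. Line, vector, depth, 4-OHT and the way RYBP was lost change together and cannot be told apart.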

How the results depend on the processing

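The calls of Zfp352, Tmem92 and Sp110 with shRybp, in Rybp-/- ESCs, with RYBP phase disruption and in the difference of the shRybp and Rybp-/- effects held under every alternative run, 3 of 3 each time. In TF-AA mutation cells 2 to 3 were called when a library was left out, and 2 by DESeq2, Sp110 being the one lost. With shWdr5, 0 to 1 were called when a library was left out, the 1 being Sp110 without shEV replicate 2. In the libraries labelled rTRS DOX, 1 was called without the filter on low counts, 1 with a replicate block and 0 to 1 when a library was left out. In Tet-on RYBP cells no stability can be read, since none of these genes passed the filter in the main analysis and in several alternatives. The signs that turned were those of Tmem92 with shWdr5 (-0.33 to 0.10 over the libraries left out, the highest without shEV replicate 1) and Zfp352 in rTRS (-0.92 to 0.57, the highest without rTRS NTC replicate 1), and the cause was not tested. Of 172 alternative values for single genes, 162 kept direction and call. Peaks at the promoters stayed at 1 in all 4 alternatives, of which every annotated and RefSeq start was chosen after seeing the data.

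Over all genes, an added log2 fold change above 1 left 2088 of 8721 called genes with shRybp, 1330 of 7720 in Rybp-/- ESCs, 986 of 4814 with RYBP phase disruption, 1176 of 4412 in TF-AA mutation cells, 2815 of 9547 with shWdr5, 135 of 899 in Tet-on RYBP cells and 1953 of 7070 in rTRS. DESeq2 called 2980 genes with RYBP phase disruption. Leaving out a library gave 2724 to 4767 genes in TF-AA mutation cells and 406 to 1566 in Tet-on RYBP cells.

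Libraries with the same replicate number did not deviate together (r from -0.02 to 0.07), so the numbers were not taken as pairs, and apart from Sp110 in rTRS the replicate block changed no call of these genes. Summing Tcstv1 and Tcstv3 was not run because neither was matched. In the Tet.RYBP table and in controls at 0 to 6 counts, counting error limits the size of a fold change that can be given.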

Other observations

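The gene row annotated as Dux, looked at after the values above were seen, had 12 and 10 counts with shEV and 38 and 39 with shRybp. It had 0 counts in both Rybp+/+ libraries and 28 and 10 in Rybp-/- ESCs, and 4 and 7 with WT.RYBP against 34 and 60 with RYBP phase disruption. In WT ESCs it had 0 counts in both libraries and 8 and 2 in TF-AA mutation cells, and in shWdr5 ESCs 0 and 1 against 8 and 6 with shEV. It had 4 and 1 counts with vehicle and 0 and 4 with doxycycline in Tet-on RYBP cells, and 0 and 4 in rTRS NTC against 4 and 3 in the libraries labelled rTRS DOX. Dux is a multicopy gene, and reads of its copies may be lost or shared.

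Besides Zfp352 and Sp110, 30 genes had a RefSeq promoter window with both ACACCTTTAATC and TATAAGG, and 12 of them were matched to the tables. With shRybp 6 of these were tested, of which 5 rose and 0 fell, and in Rybp-/- ESCs 2 of 4 rose and 1 fell, beside 26.8% and 22.8% of all genes rising. The counts were 3 rising and 0 falling of 5 with RYBP phase disruption, 2 rising and 1 falling of 4 in TF-AA mutation cells and with shWdr5, and 1 rising and 1 falling of 4 in Tet-on RYBP cells and in the libraries labelled rTRS DOX. In this order, 16.1%, 14.4%, 31.5%, 3.63% and 23% of all genes rose. The shares that fell were 17%, 16.1%, 31.5%, 2.39% and 20.4%. With shRybp and in Rybp-/- ESCs 26% and 22.7% of all genes fell. Genes near 0 in the control, such as Gm4340 in Rybp+/+ ESCs, could pass the filter only through the other group. Gm4340, itself on the list of other 2-cell-like genes, had 218 and 268 counts with shEV and 1754 and 1208 with shRybp, and 0 and 2 counts in Rybp+/+ against 108 and 120 in Rybp-/- ESCs. Zbed3 rose with shRybp (log2 fold change 0.59) and fell in Rybp-/- ESCs (-0.32). Of the 16 promoter windows of other 2-cell-like genes in the table, 2 held ACACCTTTAATC. These letters were chosen after the sequences were seen, so the counts are a description.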
